A study of Mus musculus with 15 samples.

Results

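The mitochondrial carrier family was followed in cultured white adipocytes that spent 0, 1 or 12 days at 31°C. Its members were taken as the rows of the deposited count table whose symbol starts with Slc25a and a digit, which gave 44 of 18804 rows. The cells were of the strain C57BL/6J. They had been differentiated into adipocytes from mesenchymal stem cells (MSCs), which the study drew from the ear, with methylisobutylxanthine, dexamethasone, insulin and a thiazolidinedione that the labels give as troglitazone. All cells were grown in 5% CO2 with fetal bovine serum. The day 0 group stayed at 37°C throughout, the day 1 group was moved to 31°C for its last day of culture, and the day 12 group spent its last 12 days there, so that all groups were harvested at the same age of culture. Each of the 3 groups held 5 libraries of total RNA. No source used here tells if libraries of a group stand for different mice or only for different dishes, so each SD and p-value measures only the spread between these libraries, which may be technical.

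Mitochondrial carriers are small proteins of the inner mitochondrial membrane, built from repeats of a shared fold, that exchange metabolites between the matrix and the cytosol. They bring ADP and phosphate to ATP synthase and carry ATP out, feed the matrix with acylcarnitines, amino acids and cofactors, and export the citrate that white adipocytes use to make fatty acids. A few members sit elsewhere: Slc25a17 is a peroxisomal carrier and Slc25a46 lies in the outer mitochondrial membrane. Uncoupling proteins share the fold but carry the Ucp symbols, so they are not rows of this set.

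Total counts ranged from 64648178 to 133270973 per library. Levels are given in CPM, a count made relative to library size with TMM factors. Where a gene had 0 counts, its level may have been as high as 0.0225 CPM (deepest library) to 0.0464 CPM (shallowest library), counting error only. Of the 44 members, 39 had enough counts to be tested, among 14293 genes tested in all. The other 5 stayed near 0 in every library. The testis-type ADP/ATP carrier Slc25a31 reached at most 10 counts, the ornithine carrier Slc25a2 at most 7, the glutamate carrier Slc25a18 at most 2, the ATP-Mg/phosphate carrier Slc25a41 at most 2, and Slc25a48 at most 13. Adipocyte markers were abundant in every library (summed level of 8 genes from 5348 to 5896 CPM at day 0, from 6314 to 6796 CPM at day 1 and from 4872 to 5451 CPM at day 12), and the 5 brown adipocyte markers, Ucp1 included, summed to at most 2.13 CPM in any library. Stromal progenitor markers were abundant as well, with a summed level of 6 genes that went from 7893 to 8356 CPM at day 0 down to between 4769 and 5131 CPM at day 12. This sum was mostly Col3a1, and within the list Pdgfra went the other way, from 562 to 712 CPM (log2 fold change 0.34, under the fold limit). In these cultures, fewer cells of a type and less RNA per cell cannot be told apart.

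Expression of the family was concentrated in a few members at 37°C. Levels are compared between genes as CPM per kilobase of annotated exon. The length is the union of all annotated exons of a gene, and the orders below depend on it. In CPM, Slc25a3 at day 0 (205 CPM) stood above Slc25a1 (154 CPM) and Slc25a5 (126 CPM). At day 12 it was the highest member in CPM, at 355 CPM. At day 0 the heart and muscle type ADP/ATP carrier Slc25a4 stood highest at 102 CPM per kilobase, followed by the widely expressed ADP/ATP carrier Slc25a5 at 76.3, the citrate carrier Slc25a1 at 71.0, the glutathione carrier Slc25a39 at 41.6, the phosphate carrier Slc25a3 at 37.0, the oxoglutarate/malate carrier Slc25a11 at 35.7, the peroxisomal Slc25a17 at 24.2 and the dicarboxylate carrier Slc25a10 at 16.4 CPM per kilobase. The order changed with time at 31°C. At day 12 Slc25a5 was highest at 165 CPM per kilobase, then Slc25a4 at 121, Slc25a3 at 64.0, Slc25a1 at 60.6, Slc25a39 at 41.5, Slc25a11 at 36.0, the ATP-Mg/phosphate carrier Slc25a24 at 26.6 and Slc25a17 at 24.5. Neighbours in these orders whose libraries overlapped were Slc25a3 and Slc25a11 at day 0 and Slc25a3 and Slc25a1 at day 12. The libraries of the other neighbouring pairs did not overlap, though Slc25a5 and Slc25a1 at day 0 and Slc25a24 and Slc25a17 at day 12 differed in their means by less than the range of the first of each pair.

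The summed level of the family was higher with time at 31°C, and at day 12 nearly all of the net difference lay in 3 members. The 44 members summed to 1646 ± 23.0 CPM at day 0, 1839 ± 29.1 CPM at day 1 and 1999 ± 30.7 CPM at day 12 (SD, n = 5 each), and the ranges of the 3 groups did not overlap (1617 to 1671, 1805 to 1880, and 1954 to 2023 CPM). The 3 carriers that supply ATP synthase and export its product, Slc25a3, Slc25a4 and Slc25a5, made up 40.8% ± 0.498 of the family's summed CPM per kilobase at day 0, then 46.3% ± 0.350 (day 1) and 52.6% ± 0.825 (day 12; SD, n = 5). In CPM, these 3 summed to 571 ± 13.1 at day 0, 715 ± 14.1 at day 1 and 911 ± 25.4 at day 12, and the other 41 members to 1075 ± 14.0, 1124 ± 16.2 and 1088 ± 11.7. These sums are descriptions and were not tested. Among the other 41 members, rises and falls largely cancelled at day 12. Slc25a24 went from 45.6 to 91.1 CPM, while Slc25a22 went from 55.1 to 28.4 CPM and Slc25a1 from 154 to 131 CPM.

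**Figure D1:**
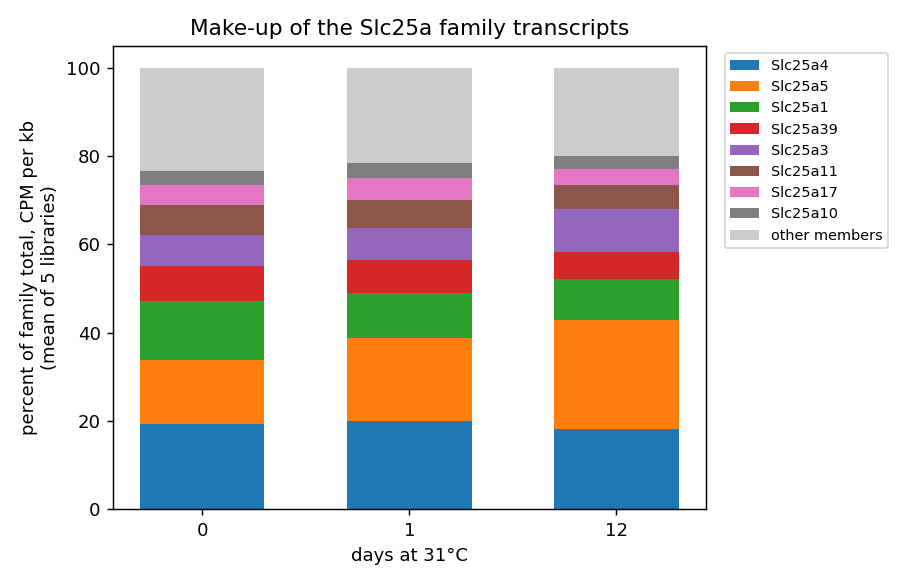
Make-up of the family at 0, 1 and 12 days at 31°C, as the percent of its summed CPM per kilobase of exon (mean of 5 libraries per day). The 8 members highest at day 0 are drawn in colour and the other 36 together in grey, and the shares of Slc25a5 and Slc25a3 grow while that of Slc25a1 shrinks from 13.5% at day 0 to 9.12% at day 12.

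A gene is called here when edgeR's quasi-likelihood test gave an adjusted p under 0.05 over all 14293 genes and the fold change was over 1.5, the limits the study also used. At day 1 against day 0, 8 of the 39 members (20.5%) were called, 3 higher and 5 lower, where 21.1% of all genes were called (7.71% higher and 13.4% lower). At day 12 against day 0, 9 members (23.1%) were called, 4 higher and 5 lower, where 29.2% of all genes were called (13% higher and 16.2% lower). The share of the family at day 1 was thus near that of all genes, and at day 12 it was somewhat below it. These differences rest on few members and were not tested. With DESeq2 in place of edgeR, the split was 3 to 5 for day 1 and 4 to 6 for day 12. Both comparisons use the same day 0 libraries. With libraries scaled by total counts alone the day 12 split became 7 higher and 3 lower, while the median of all genes moved from 0.01 to 0.21 on the log2 scale. The median log2 fold change of the 39 members was 0.02 at day 1 and 0.03 at day 12, beside -0.01 and 0.01 over all genes. Without the fold limit, the adjusted p alone passed 26 members at day 1 and 29 at day 12 (66.7% and 74.4%, against 71.5% and 76.6% of all genes). The 5 values of one group did not overlap those of day 0 in 24 members at day 1 and 25 at day 12 (61.5% and 64.1%, against 57.4% and 64.6% of all genes). Library numbers in the titles fall into 2 series. Within the larger one, of 11 libraries, day 1 gave 3 members called higher with 5 lower, and day 12 gave 5 higher with 6 lower. The remaining 4 libraries, with 1 of day 0, 2 of day 1 and 1 of day 12, were not fitted on their own.

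**Figure D2:**
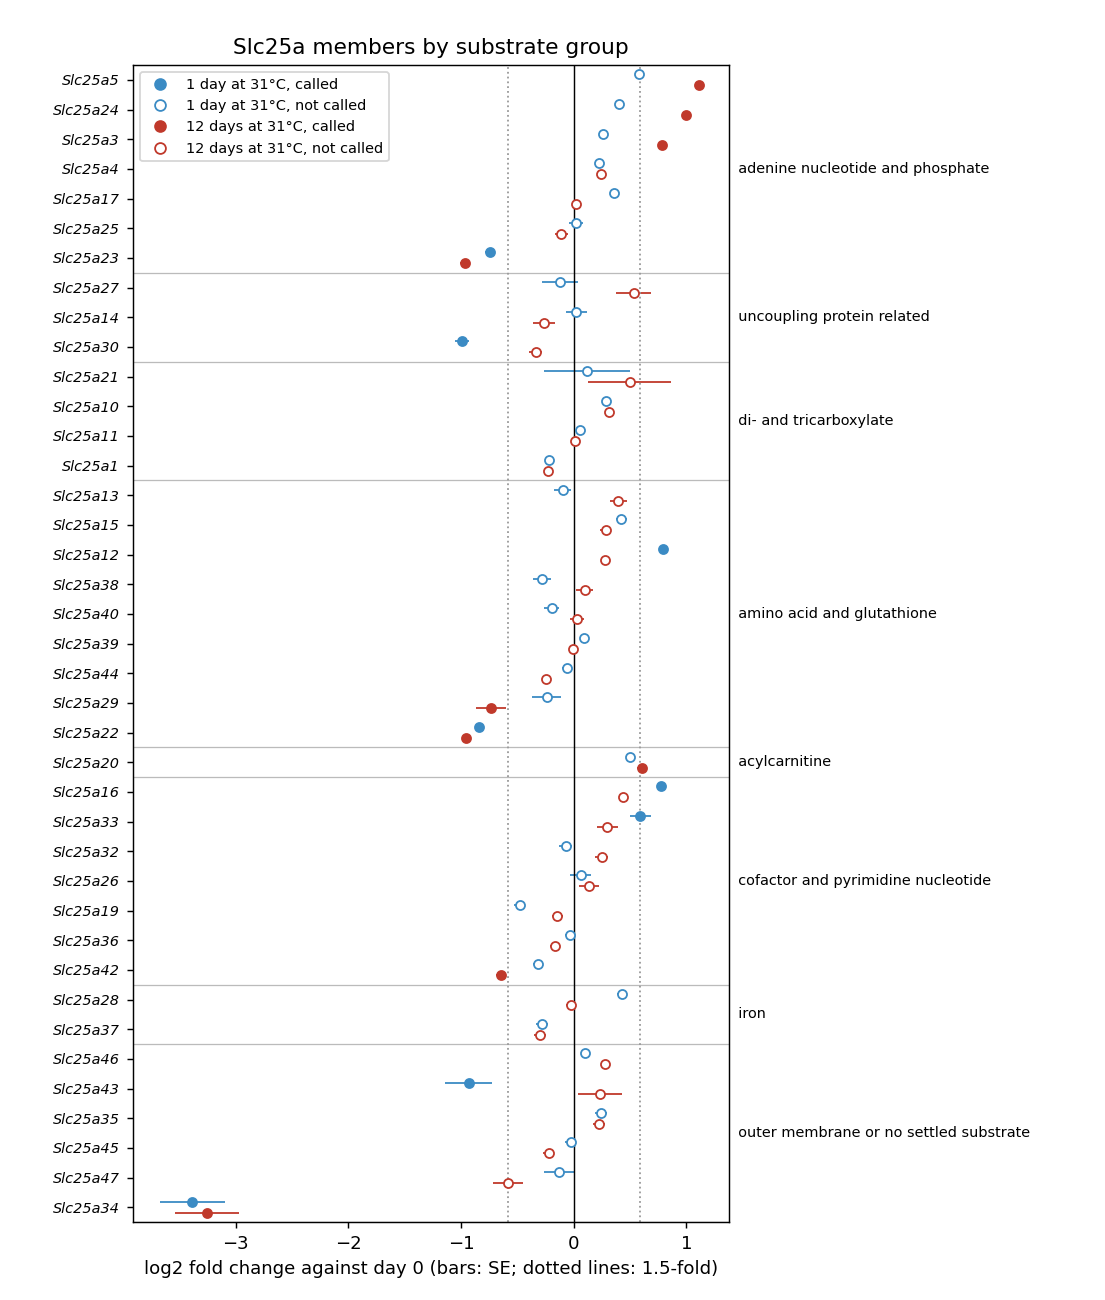
Log2 fold change against day 0 of the 39 tested members, at 1 day (blue) and 12 days (red) at 31°C, ordered by role. Bars are standard errors, filled points are called and dotted lines mark a 1.5-fold change; called points spread to both sides within the adenine nucleotide, amino acid and cofactor groups.

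Upstream sequences of 4 members are shown to give the context of the results that follow: Slc25a5 and Slc25a24, the called members with the largest increases at day 12, Slc25a12, the member with the largest increase at day 1, and Slc25a34, the member with the largest decrease at both days. Each is the 250 bases before the RefSeq start on the gene's own strand in GRCm38.p6, the same assembly as the mm10 build of the reads, at chrX:36795347-36795596 (+ strand), chr3:109122899-109123148 (+ strand), chr2:71367756-71368005 (- strand) and chr4:141623835-141624084 (- strand) in that order. Capitals mark GC boxes (GGGCGG or its complement CCGCCC) and CCAAT boxes (CCAAT or its complement ATTGG), searched on both strands, and the motifs did not overlap.
Slc25a5: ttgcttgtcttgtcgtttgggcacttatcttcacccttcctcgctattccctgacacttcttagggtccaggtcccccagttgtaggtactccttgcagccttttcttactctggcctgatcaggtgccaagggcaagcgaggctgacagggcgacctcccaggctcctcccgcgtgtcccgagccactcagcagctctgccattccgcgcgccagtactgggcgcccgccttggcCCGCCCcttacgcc
Slc25a24: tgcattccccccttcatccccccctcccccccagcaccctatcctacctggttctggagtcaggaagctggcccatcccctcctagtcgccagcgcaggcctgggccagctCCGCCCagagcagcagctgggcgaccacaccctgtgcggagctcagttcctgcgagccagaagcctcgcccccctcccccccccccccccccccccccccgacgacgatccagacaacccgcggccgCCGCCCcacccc
Slc25a12: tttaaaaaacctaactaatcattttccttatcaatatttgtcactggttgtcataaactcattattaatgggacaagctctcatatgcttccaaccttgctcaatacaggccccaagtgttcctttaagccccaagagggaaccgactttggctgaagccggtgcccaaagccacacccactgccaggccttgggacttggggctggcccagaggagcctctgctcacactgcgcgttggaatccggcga
Slc25a34: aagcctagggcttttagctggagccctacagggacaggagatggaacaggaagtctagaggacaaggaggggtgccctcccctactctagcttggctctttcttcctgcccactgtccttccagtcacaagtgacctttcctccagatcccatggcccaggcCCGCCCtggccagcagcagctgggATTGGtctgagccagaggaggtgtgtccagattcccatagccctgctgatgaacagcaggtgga
A GC box occurred once in the Slc25a5 window, at 2 places in the Slc25a24 window and once in that of Slc25a34, which also held the only CCAAT box of the 4. Neither motif was found in the Slc25a12 window. Of 43 windows that the RefSeq table gives for 34 of the 44 members, 30 (69.8%) held a GC box and 20 (46.5%) a CCAAT box, against 32.7% and 33.8% of all 32851 windows of this length, a background that includes non-coding genes. Members that rose and members that fell both carried these letters, and a match of letters is no evidence of a site in use.

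The first role group holds the carriers of adenine nucleotides and phosphate, which link ATP synthase to the cytosol. Of 9 members 7 were tested. At day 1, 1 of the 7 was called, lower, and at day 12, 3 were called higher and 1 lower. Their median log2 fold change was 0.26 at day 1 and 0.24 at day 12. Counts called in this group and in the later groups and lists were not tested against the shares of all genes given above.

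Slc25a5 encodes the ADP/ATP carrier typical of dividing and non-muscle cells (chrX:36795651-36798807, + strand). Its level was 129.7, 124, 119, 129 and 126 CPM in the day 0 libraries, 183, 179, 193, 191 and 189 CPM at day 1, and 282, 269.9, 266, 258 and 278 CPM at day 12. The 3 groups were fully separate and stepped upward from day 0 to day 1 to day 12. The mean at day 12 was 2.16 times that at day 0, a log2 fold change of 1.11 (SE 0.031, edgeR adjusted p = 7.66e-20). At day 1 the log2 fold change was 0.58 (SE 0.031, edgeR adjusted p = 3.53e-14), just under the fold limit, so the gene was not called at that time. It passed the limit there with total counts as the scaling (0.60) and without replicate 1 or replicate 4 of day 0 or replicate 2 of day 1 (0.59 each). The annotation names 1 pseudogene of Slc25a5, and how reads shared with such a copy were counted is not stated.

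Slc25a4, the ADP/ATP carrier of heart and muscle (chr8:46206797-46211284, - strand), was not called. It stood at 240.3 ± 4.37 CPM at day 0, 281 ± 5.78 CPM at day 1 and 285 ± 9.91 CPM at day 12 (SD, n = 5), with log2 fold changes of 0.23 and 0.24 (SE 0.027 each). Its day 1 and day 12 libraries lay above all day 0 libraries, and the change stayed under the fold limit. Within each library the ratio of Slc25a5 to Slc25a4, both per kilobase, was 0.747 ± 0.0160 at day 0, and it went to 0.952 ± 0.0343 with 1 day and to 1.36 ± 0.0212 with 12 days at 31°C (SD, n = 5). Per kilobase, Slc25a4 was thus the more abundant ADP/ATP carrier transcript in all 5 libraries of day 0 and of day 1, and Slc25a5 in all 5 of day 12. The day 12 order rests on the exon lengths used, 2.353 kb for Slc25a4 and 1.646 kb for Slc25a5. In CPM, Slc25a4 stayed above Slc25a5 in all 5 libraries of day 12 (means 285 and 271 CPM).

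Slc25a3 carries phosphate into the matrix with a proton (chr10:91116574-91124059, - strand). It measured 210.3, 209, 198, 209.5 and 200.2 CPM at day 0, 241, 243, 251, 242 and 255 CPM at day 1, and 360.0, 361, 344, 350.3 and 359.6 CPM at day 12. The groups did not overlap, and the larger step came between day 1 and day 12. Its log2 fold change was 0.26 at day 1, under the limit, and 0.79 at day 12 (SE 0.026, edgeR adjusted p = 2.01e-18), a 1.73-fold rise.

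The calcium-regulated ATP-Mg/phosphate carriers, which set the adenine nucleotide content of the matrix, moved apart. Slc25a24 (chr3:109123149-109168457, + strand) stood at 44.2, 45.9, 45.1, 48.0 and 44.6 CPM at day 0, 58.7, 61.2, 62.2, 59.9 and 59.6 CPM at day 1, and 86.6, 90.5, 96.2, 92.5 and 89.8 CPM at day 12. All 3 groups were separate and stepped upward. The log2 fold change was 0.40 at day 1, under the limit, and 1.00 at day 12 (SE 0.032, edgeR adjusted p = 7.39e-19). The rise from day 1 to day 12 was itself called (log2 fold change 0.60, SE 0.031, edgeR adjusted p = 3.35e-14) and fell under the fold limit without day 12 replicate 3 (0.58).

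Slc25a23 (chr17:57043711-57059863, - strand) went the other way. Its libraries gave 30.1, 27.9, 31.0, 29.7 and 29.6 CPM at day 0, 16.7, 18.9, 17.4, 17.4 and 18.5 CPM at day 1, and 14.8, 16.4, 14.6, 14.8 and 15.6 CPM at day 12. Every library at 31°C lay below every day 0 library. The log2 fold change was -0.74 at day 1 (SE 0.043, edgeR adjusted p = 1.66e-13) and -0.96 at day 12 (SE 0.043, edgeR adjusted p = 7.16e-16). The ratio of Slc25a24 to Slc25a23 per kilobase went from 2.37 ± 0.136 at day 0 to 5.25 ± 0.246 at day 1 and 9.24 ± 0.659 at day 12 (SD, n = 5). The third tested carrier of this kind, Slc25a25, was at 15.0 ± 1.07, 15.2 ± 0.663 and 13.9 ± 1.29 CPM and was not called (log2 fold changes 0.02 and -0.11). The peroxisomal Slc25a17 was at 68.8 ± 2.77, 88.2 ± 2.27 and 69.8 ± 1.41 CPM, with a log2 fold change of 0.36 at day 1, under the limit, and 0.02 at day 12.

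**Figure D3:**
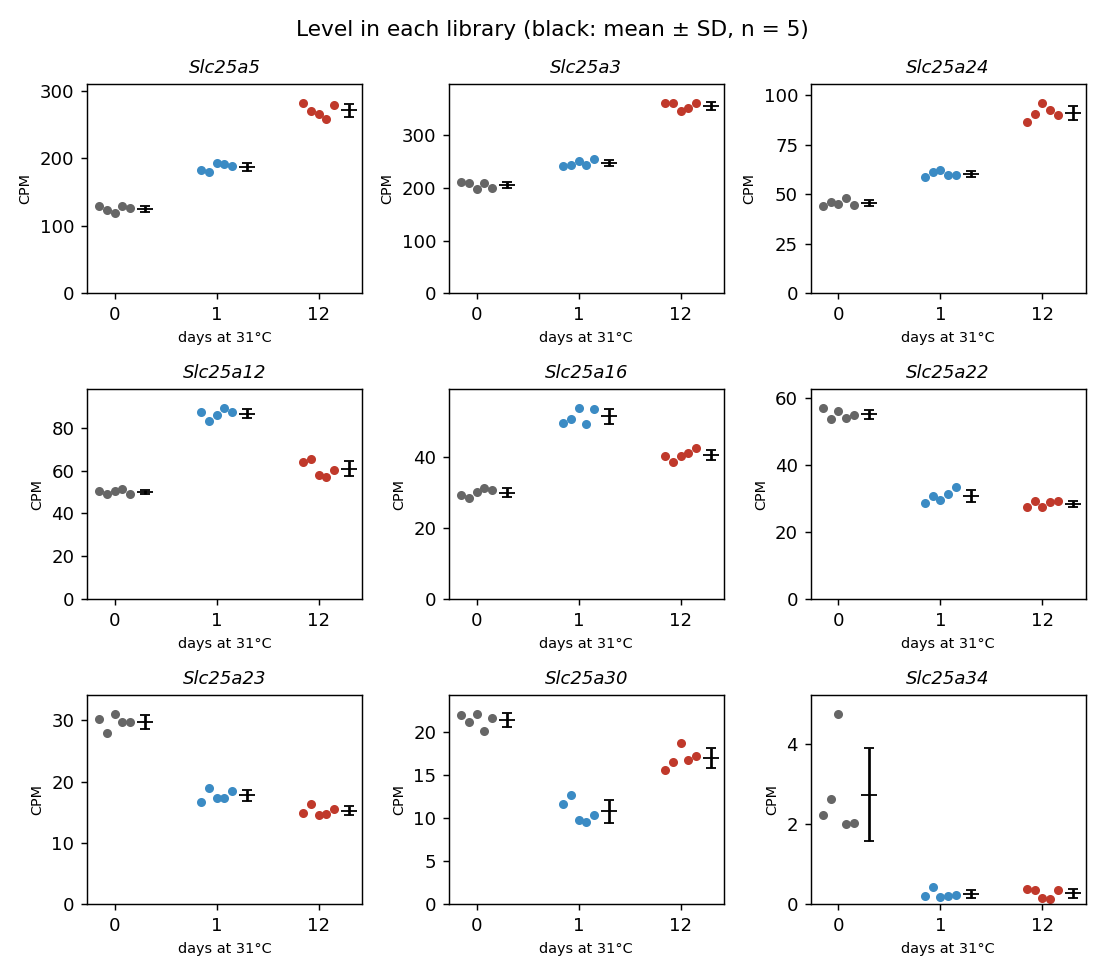
Level in CPM (linear axes from 0) of 9 members in each of the 5 libraries at 0, 1 and 12 days at 31°C, with the mean and SD in black. Slc25a5, Slc25a3 and Slc25a24 step upward, Slc25a12 and Slc25a16 are highest at day 1, Slc25a30 is lowest at day 1, Slc25a22, Slc25a23 and Slc25a34 are low at both times, and day 0 replicate 3 of Slc25a34 stands apart at 4.77 CPM.

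Carriers related to the uncoupling proteins were Slc25a14, Slc25a27 and Slc25a30, whose substrates are less settled. At day 1, 1 of the 3 was called, lower, and at day 12 none was called by edgeR or DESeq2, though 3 of 3 gave an unadjusted p under 0.05. Of all genes, 76.6% passed even the adjusted p alone at day 12. Slc25a30, first described in kidney (chr14:75760117-75787037, - strand), had levels of 22.1, 21.2, 22.2, 20.2 and 21.7 CPM at day 0, 11.6, 12.7, 9.87, 9.54 and 10.4 CPM at day 1, and 15.6, 16.5, 18.8, 16.8 and 17.3 CPM at day 12. The groups were separate, with day 1 lowest and day 12 between. Its log2 fold change was -0.99 at day 1 (SE 0.063, edgeR adjusted p = 1.02e-12) and -0.34 at day 12, under the limit. The rise from day 1 to day 12 was called (log2 fold change 0.65, SE 0.064, edgeR adjusted p = 3.2e-09) but measured 0.57 within the larger library series, under the limit. Slc25a27 was low, at 1.40 ± 0.228, 1.30 ± 0.268 and 2.03 ± 0.273 CPM, and was called higher only for day 12 against day 1 (log2 fold change 0.66, SE 0.157, edgeR adjusted p = 0.000735), a call lost without day 1 replicate 3 (0.55). Against day 0 its day 12 value of 0.53 missed the limit, and it passed it with total counts as the scaling (0.73), without day 0 replicate 2 (0.61), without day 12 replicate 5 (0.59) and in the larger library series (0.61). Slc25a14 measured 4.19 ± 0.521, 4.26 ± 0.439 and 3.49 ± 0.301 CPM and was not called.

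The di- and tricarboxylate carriers move citrate, malate, oxoglutarate and related acids. Of 4 members, 0 were called in the 3 comparisons by edgeR or by DESeq2 with the fold limit, while an unadjusted p under 0.05 was reached by 3 at day 1, by 2 at day 12 and by 0 for day 12 against day 1. Even the adjusted p alone passed 71.5%, 76.6% and 67.2% of all genes in these comparisons. The citrate carrier Slc25a1 (chr16:17925223-17928219, - strand) went from 154 ± 2.66 CPM at day 0 to 132 ± 4.05 CPM at day 1 and 131 ± 5.18 CPM at day 12 (SD, n = 5). All of its libraries at 31°C lay below those of day 0, with log2 fold changes of -0.22 and -0.23 (SE 0.029 each). The dicarboxylate carrier Slc25a10 measured 56.7 ± 2.16, 69.1 ± 3.75 and 70.4 ± 2.69 CPM, also without overlap with day 0, at log2 fold changes of 0.29 and 0.31. Slc25a11, the oxoglutarate/malate carrier of the malate-aspartate shuttle, was at 75.8 ± 1.04, 78.9 ± 1.40 and 76.3 ± 2.79 CPM, with log2 fold changes of 0.06 and 0.01. The oxoadipate carrier Slc25a21 stayed under 1 CPM.

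Amino acid and glutathione carriers formed the largest group, with 9 of 11 members tested. At day 1, 1 was called higher and 1 lower. At day 12, 2 were called, both lower. The group median was -0.10 at day 1 and 0.03 at day 12 on the log2 scale.

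Slc25a12, the aspartate/glutamate carrier also called aralar, works in the malate-aspartate shuttle (chr2:71271063-71367749, - strand). Its level was 50.7, 49.0, 50.4, 51.3 and 49.1 CPM at day 0, 87.5, 83.4, 85.9, 89.2 and 87.6 CPM at day 1, and 63.8, 65.2, 57.8, 57.2 and 60.5 CPM at day 12. The groups were separate, with day 1 highest. The log2 fold change was 0.79 at day 1 (SE 0.034, edgeR adjusted p = 7.41e-16), a 1.73-fold rise, and 0.28 at day 12, under the limit. Its liver-type counterpart Slc25a13, citrin, was at 6.77 ± 0.411, 6.33 ± 0.479 and 8.91 ± 0.921 CPM and was not called. The ratio of Slc25a12 to Slc25a13 per kilobase was 3.84 ± 0.220 at day 0, 7.12 ± 0.570 at day 1 and 3.58 ± 0.584 at day 12 (mean ± SD of 5 libraries), so the day 1 libraries alone stood apart.

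The glutamate carrier Slc25a22 brings glutamate into the matrix with a proton (chr7:141429744-141437892, - strand). It measured 56.9, 53.7, 56.0, 54.1 and 54.8 CPM at day 0, 28.8, 30.8, 29.7, 31.2 and 33.4 CPM at day 1, and 27.5, 29.2, 27.4, 28.9 and 29.1 CPM at day 12. No library at 31°C came near the day 0 libraries, and the groups of day 1 and day 12 overlapped. On the log2 scale the change was -0.84 at day 1 (SE 0.037, edgeR adjusted p = 9.49e-16) and -0.96 at day 12 (SE 0.037, edgeR adjusted p = 3.79e-17), where the mean was 0.515 times that of day 0. Its paralogue Slc25a18 was among the members near 0, so Slc25a22 was the form of this carrier that could be measured.

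Slc25a29, a carrier of basic amino acids, was low and fell by day 12. Its means were 2.22 ± 0.162 CPM at day 0, 1.89 ± 0.364 CPM at day 1 and 1.33 ± 0.143 CPM at day 12, with a log2 fold change of -0.74 at day 12 (SE 0.134, edgeR adjusted p = 2.72e-05). With total counts as the scaling this was -0.54, under the limit. The adjacent gene Slc25a47, 162 bases away on chromosome 12 on the other strand in the annotation, measured 2.28 ± 0.129, 2.09 ± 0.422 and 1.53 ± 0.219 CPM and missed the limit at day 12 (log2 fold change -0.58), though DESeq2 called it lower there (-0.59). The glutathione carrier Slc25a39, at 115 ± 3.15, 122 ± 4.30 and 114 ± 2.84 CPM, was not called, and its log2 fold change at day 12 was within 0.01 of 0. Slc25a39 exceeded the related Slc25a40 by 29.5 ± 2.24, 36.1 ± 3.94 and 28.8 ± 1.85 times per kilobase at days 0, 1 and 12.

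The acylcarnitine carrier Slc25a20 brings fatty acyl groups into the matrix for oxidation. Its level was 28.0 ± 1.30 CPM at day 0, 39.6 ± 1.42 CPM at day 1 and 42.6 ± 1.55 CPM at day 12 (SD, n = 5), and all libraries at 31°C lay above all day 0 libraries. It was called at day 12 (log2 fold change 0.60, SE 0.037, edgeR adjusted p = 2.98e-13) and not at day 1 (0.50). The call sat close to the limit and was lost without day 0 replicate 3 or day 12 replicate 2 (0.58 each).

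Cofactor and pyrimidine nucleotide carriers supply coenzyme A, thiamine pyrophosphate, S-adenosylmethionine, folate and nucleotides for mitochondrial DNA and RNA. All 7 were tested. At day 1, 2 were called, both higher, and at day 12, 1 was called, lower. Slc25a16, linked to coenzyme A transport (chr10:62920633-62946498, + strand), measured 29.1, 28.3, 30.0, 31.2 and 30.7 CPM at day 0, 49.5, 50.6, 53.6, 49.1 and 53.4 CPM at day 1, and 40.1, 38.4, 40.1, 41.1 and 42.3 CPM at day 12. The groups were separate, with day 1 highest and day 12 between. The log2 fold change was 0.78 at day 1 (SE 0.036, edgeR adjusted p = 2.71e-15) and 0.44 at day 12, under the limit. With total counts as the scaling the day 12 value was 0.63, over the limit. Slc25a42, the coenzyme A carrier, went down instead, from 19.3 ± 0.675 CPM at day 0 to 15.5 ± 0.625 CPM at day 1 and 12.3 ± 0.432 CPM at day 12. It was called at day 12 (log2 fold change -0.65, SE 0.043, edgeR adjusted p = 1.25e-12) but not with total counts as the scaling (-0.45). The ratio of Slc25a16 to Slc25a42 per kilobase was 1.93 ± 0.115 at day 0, 4.13 ± 0.147 at day 1 and 4.10 ± 0.222 at day 12 (mean ± SD of 5 libraries).

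Slc25a33, a pyrimidine nucleotide carrier, was at 2.66 ± 0.215 CPM at day 0, 4.01 ± 0.326 CPM at day 1 and 3.29 ± 0.351 CPM at day 12. Its call at day 1 rested on a log2 fold change of 0.59 (SE 0.094, edgeR adjusted p = 5.49e-06) and was lost with upper quartile scaling (0.57) and without replicate 2 or replicate 3 of day 0 or without replicate 2 or replicate 3 of day 1 (0.56 to 0.57). Of its exon bases 14.9% lie in a gene on the other strand, and the strand setting of the counting is not stated. The related Slc25a36, at 56.8 ± 1.77, 55.4 ± 3.90 and 50.6 ± 2.84 CPM, was not called, and the ratio of Slc25a33 to Slc25a36 per kilobase was 0.239 ± 0.0174, 0.369 ± 0.0304 and 0.332 ± 0.0472 at days 0, 1 and 12.

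Neither iron carrier was called by edgeR or DESeq2, though the unadjusted p was under 0.05 for both at day 1 and for 1 at day 12. Beside this, 71.5% (day 1) and 76.6% (day 12) of all genes passed the adjusted p alone. Slc25a37, mitoferrin 1, measured 36.8 ± 2.46, 30.2 ± 1.55 and 30.0 ± 2.69 CPM, and Slc25a28, mitoferrin 2, measured 14.6 ± 0.298, 19.6 ± 0.358 and 14.4 ± 0.942 CPM at days 0, 1 and 12. At day 1 they stood on opposite sides of 0, at log2 fold changes of -0.28 and 0.43. The ratio of Slc25a28 to Slc25a37 per kilobase was 0.640 ± 0.0439 at day 0, 1.05 ± 0.0666 at day 1 and 0.775 ± 0.0497 at day 12 (mean ± SD of 5 libraries).

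**Figure D4:**
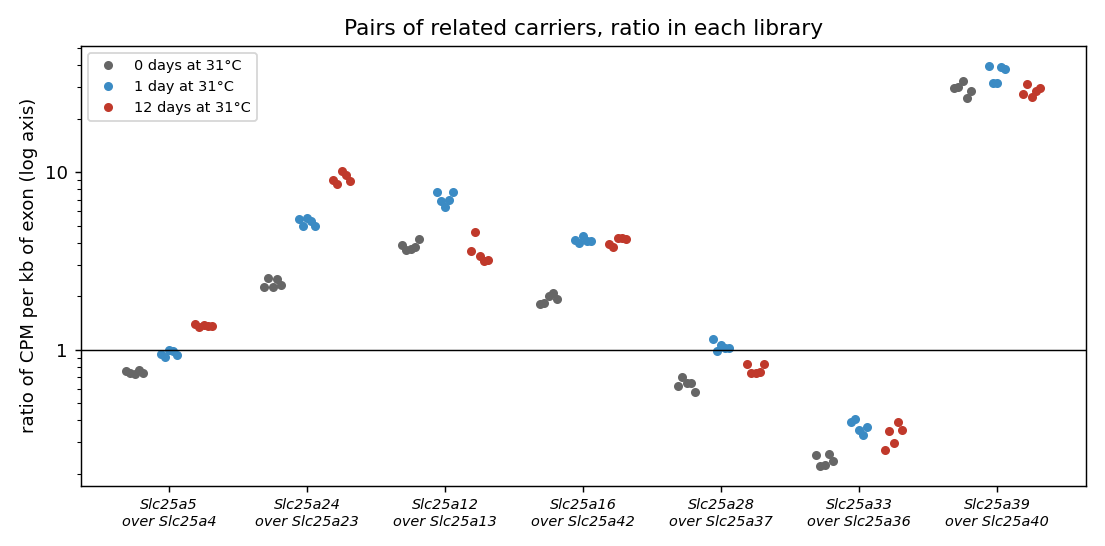
Ratio of the levels, each in CPM per kilobase of exon, of 7 pairs of related carriers in each of the 15 libraries (log axis, line at 1). Libraries of day 0 are grey, day 1 blue and day 12 red; Slc25a5 over Slc25a4 passes 1 by day 12, Slc25a24 over Slc25a23 rises at each step, and Slc25a12 over Slc25a13 is highest at day 1.

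These pairs were chosen with their values known, so the ratios are given as descriptions. A ratio within a library does not depend on how libraries are scaled. For Slc25a5 over Slc25a4, Slc25a24 over Slc25a23 and Slc25a28 over Slc25a37 the 3 groups did not overlap. For Slc25a16 over Slc25a42 and Slc25a33 over Slc25a36 the groups of day 1 and day 12 overlapped.

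The last group joins the outer membrane protein Slc25a46 with carriers of no settled substrate, of which 6 of 7 were tested. At day 1, 2 were called, both lower, and at day 12, 1 was called, lower. Slc25a34 showed the largest fold change of the family in either direction (chr4:141618824-141623821, - strand). Its libraries gave 2.23, 2.64, 4.77, 2.01 and 2.04 CPM at day 0, 0.218, 0.444, 0.196, 0.223 and 0.245 CPM at day 1, and 0.391, 0.353, 0.158, 0.143 and 0.351 CPM at day 12. Every library at 31°C lay below 0.5 CPM and every day 0 library above 2 CPM, with day 0 replicate 3 standing above the others. Against day 0 the log2 fold change was -3.38 at day 1 (SE 0.290, edgeR adjusted p = 2.23e-10) and -3.26 at day 12 (SE 0.285, edgeR adjusted p = 2.18e-10), so the means at these times were 0.0968 and 0.102 times that at day 0. Without day 0 replicate 3 the values were -3.08 and -2.96, and both calls held.

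Slc25a43, of unknown substrate, lies 18448 bases from Slc25a5 on chromosome X (chrX:36743659-36777202, + strand) and behaved unlike it. Its level was 0.918 ± 0.214 CPM at day 0, 0.482 ± 0.0818 CPM at day 1 and 1.08 ± 0.176 CPM at day 12 (SD, n = 5). It was called lower at day 1 (log2 fold change -0.93, SE 0.209, edgeR adjusted p = 0.000341) and higher at day 12 against day 1 (1.17, SE 0.209, edgeR adjusted p = 2.92e-05), and its libraries of day 0 and day 12 overlapped. Slc25a46 measured 48.2 ± 0.743, 51.6 ± 2.63 and 58.6 ± 1.42 CPM and was not called. Slc25a35, at 10.7 ± 0.692, 12.6 ± 0.570 and 12.5 ± 0.655 CPM, was not called either, and 31.3% of its exon bases lie in a gene on the other strand. Slc25a45 was at 15.7 ± 0.498, 15.4 ± 0.944 and 13.5 ± 0.758 CPM.

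The question of whether the later time differs from the earlier one was put to day 12 against day 1 directly. Of the 39 members 4 (10.3%) were called, where 19.1% of all genes were called. The 4 were Slc25a24, Slc25a27, Slc25a30 and Slc25a43, all higher at day 12 (10.3%, against 10.6% of all genes called higher). By edgeR and by DESeq2, 0 members were called lower, where 8.53% of all genes were, while an unadjusted p under 0.05 was reached by 30 members in either direction and the adjusted p alone passed 13 members with higher and 16 with lower values (29 of 39, against 67.2% of all genes). On the lower side Slc25a12 was nearest to the limit, at -0.51, followed by Slc25a29 at -0.50, and on the higher side Slc25a5 and Slc25a3 stood just under it, at 0.53 each. With total counts as the scaling, Slc25a5 (0.71) and Slc25a3 (0.70) passed it, while the median of all genes moved to 0.18. The 25 members called in neither comparison with day 0 had log2 fold changes from -0.48 to 0.43 (day 1) and from -0.58 to 0.53 (day 12).

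Proteins of the same fold that do not carry the Slc25a symbol were read beside the family. The uncoupling protein Ucp2 rose at day 1 and fell at day 12, from 20.9 CPM at day 0 to 41.9 CPM and then 10.5 CPM (log2 fold changes 1.01 and -0.99, both called). Ucp3 fell at both times, from 1.56 CPM to 0.911 and 0.346 CPM (-0.76 and -2.16). Mtch2, an outer membrane protein of the carrier fold, rose at both times, from 72.2 CPM to 112 and 127 CPM (0.64 and 0.82). The thermogenic Ucp1 had at most 4 counts in any library. The rows Mcart1 and Mcart6 are older symbols of Slc25a51, a carrier of NAD, and Slc25a53, and so fell outside the symbol rule. Mcart1 was at 90.5, 125 and 96.8 CPM and was not called (log2 fold changes 0.47 and 0.10), and Mcart6 was called higher at day 1 from 1.15 to 2.04 CPM (0.83).

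Partners of the carriers were counted from lists by pathway, with the same test. The list for carrier import holds 13 genes, those of the TIM22 route into the inner membrane together with Tomm20, Tomm22, Tomm40 and Tomm70a. At day 1, 3 of the 13 were called, all higher (Tomm20 0.71, Tomm70a 0.69 and Timm10 0.65 on the log2 scale). At day 12, 1 was called, higher (Timm8a1, 0.88). The median log2 fold change of the 13 was 0.34 at day 1 and 0.26 at day 12. The 15 ATP synthase subunits had log2 fold changes above 0 at both times, with medians of 0.27 and 0.17. Of these, edgeR and DESeq2 called 0 at day 1, where 14 had an unadjusted p under 0.05, and 1 at day 12 (Atp5l, 0.69). At day 1, 71.5% of all genes passed even the adjusted p alone. Of 7 enzymes of the malate-aspartate shuttle and citrate export, 0 were called by edgeR or DESeq2 at either time, and 6 at day 1 and 7 at day 12 gave an unadjusted p under 0.05. The adjusted p alone passed 71.5% of all genes at day 1 and 76.6% at day 12. Of 5 tested genes of the carnitine shuttle, Cpt1a, the rate-setting carnitine palmitoyltransferase of the outer membrane, was called higher at both times (0.71 and 0.91) and Cpt1c lower (-0.60 and -0.74). Of 10 other transporters of the mitochondrial membranes, 1 was called lower at day 1 (Sfxn4, -1.21), and at day 12 the sideroflexins Sfxn2 (1.24) and Sfxn3 (0.60) were higher and Sfxn4 (-1.71) lower.

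Markers of other cells moved with time at 31°C beside these results. The 5 cycling cell markers summed to 48.6 to 59.3 CPM at day 0, to 58.3 to 68.8 CPM at day 1 and to 148 to 179 CPM at day 12, when 5 of 5 were called higher. Mesothelial markers went from between 2.06 and 2.25 CPM to between 23.4 and 38.3 CPM at day 12, of which Msln gave a mean of 29.3 CPM, while Wt1 had at most 1 count and Upk3b at most 6 counts in any library. Of the 3 tested mesothelial markers, only Msln was called at day 12. Lrrn4 (log2 fold change -0.43) and Krt19 (0.06) were not called. Leukocyte markers stayed under a summed 14 CPM in every library, endothelial markers to at most 1.48 CPM and skeletal muscle markers to at most 1.69 CPM. Of the 6 stromal progenitor markers, 3 of the 5 tested were called lower at day 12, and of the 8 adipocyte markers 1 was called higher and 5 lower. The part of these shifts in the levels of Slc25a5, Slc25a24, Slc25a3 and the other members was not tested.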

How the data were processed

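Reads were made by the authors from total RNA on an Illumina HiSeq instrument, aligned to the mouse build mm10 with TopHat2 2.0.13 and Bowtie2 2.2.1 per the labels, and counted per gene with HTSeq; the strand setting is not given in the sources used here, so overlapping genes on opposite strands may share reads. The values used are these raw counts per gene, as deposited. A regularized log2 table and tables of fold changes and p-values, which the authors made with DESeq2, were not used.

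Genes passing filterByExpr (minimum count 10) were fitted with edgeR 4.0.16 in R 4.3.3 (TMM scaling, quasi-likelihood test, 15 libraries in 1 fit, no covariate), with Benjamini-Hochberg adjustment over 14293 genes. Standard errors divide the size of the log2 fold change by the square root of the F statistic. Total counts per library, 64648178 to 133270973, set the counting precision. The common dispersion fitted by edgeR, 0.00276, stands for a coefficient of variation of 5.25% within groups beyond counting error. Single genes could vary more, such as Slc25a34 at day 0 (2.74 ± 1.16 CPM). Levels per kilobase used the union of exons in GENCODE's GRCm38 annotation. Alternatives were other scalings (DESeq2 size factors, total counts, upper quartile), other filters, DESeq2 1.42.0, no fold limit, leaving out each library, a replicate block and the library series.

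Named with levels were all members called against day 0 and the 8 highest at day 0 per kilobase; values in every library are given for the 6 largest called changes at each day among members at 1 CPM or more. Other members and genes of lists are named where a count or a comparison turns on them, chosen after their values were seen. Members, role groups and lists were chosen with earlier results of these data known.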

Additional observations from a re-analysis of the deposited data

Results flagged for a closer look

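Libraries that stood apart from the other 4 of their group were looked for in 63 groups (21 named members at 3 times) with Dixon's test, which chance alone passes in about 1 group in 20. It was passed in 6 groups. Slc25a34 at day 0 was at 4.77 CPM in replicate 3, against 2.64 CPM in the nearest library. At day 1, Slc25a34 was at 0.444 CPM in replicate 2, against 0.245 CPM in the nearest. Slc25a1 was low in day 1 replicate 3, at 125 CPM against 133 CPM. Slc25a17 was low in day 0 replicate 3, at 63.9 CPM against 69.8 CPM. Slc25a20 and Slc25a4 were high in day 1 replicate 5, at 42.2 CPM against 39.2 CPM and at 291 CPM against 281 CPM.

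For day 12 against day 1, the adjusted p alone passed 29 of 39 members (74.4%, against 67.2% of all genes). With the fold limit as well, the effect at day 12 differed from that at day 1 in 4 members (10.3%, against 19.1% of all genes). The difference was 1.17 on the log2 scale for Slc25a43, 0.66 for Slc25a27, 0.65 for Slc25a30 and 0.60 for Slc25a24.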

How the results depend on the processing

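Over all alternatives, the counts and medians over members stayed close to their reported values in 206 cases and moved in 19. Of the log2 fold changes of named members, 1483 kept their direction and their side of the threshold, 13 fell below it, 42 came to pass it and 22 turned sign. With total counts, which moved the median of all genes to 0.21 at day 12 and to 0.18 for day 12 against day 1, day 12 had 7 members higher and 3 lower (median 0.22), and day 12 against day 1 had 7 higher (median 0.16). Without a filter the day 1 median was -0.046. With genes of a mean of at least 10 CPM, which leaves 27 members, 3 were lower at day 1, 3 were lower at day 12 (median -0.0095) and 2 were higher for day 12 against day 1. Without the fold limit, day 1 had 15 higher and 11 lower, day 12 had 15 and 14, and day 12 against day 1 had 13 and 16.

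Leaving out 1 library at a time gave, for day 1, 2 to 4 members higher and 5 lower in every case. For day 12 it gave 3 to 5 higher and 5 to 6 lower, and for day 12 against day 1 it gave 3 to 4 higher and 0 to 1 lower. The medians ranged from -0.017 to 0.040, from 0.0059 to 0.075 and from -0.032 to 0.0011. The highest day 12 median came without day 0 replicate 4, the lowest day 1 median without day 1 replicate 2, and the 1 member called lower for day 12 against day 1 without day 1 replicate 3 (Slc25a29, -0.59).

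Changes near 0 turned sign in 22 cases. For Slc25a39 at day 12 they were 0.19 with total counts, 0.0014 with upper quartile scaling, 0.0029 with no filter, and -0.017 to 0.0096 without single libraries. For day 12 against day 1 with total counts, Slc25a1 was at 0.16, Slc25a11 at 0.12, Slc25a22 at 0.056 and Slc25a39 at 0.078. Slc25a1 for day 12 against day 1 was at 0.010 with upper quartile scaling, 0.018 with the 10 CPM filter, 0.011 in the larger library series and -0.031 to 0.013 without single libraries (above 0 without day 12 replicate 1). Slc25a11 at day 12 was at -0.0095 with the 10 CPM filter and -0.0089 to 0.027 without single libraries (below 0 without day 12 replicate 2), and Slc25a17 at -0.0049 to 0.033 (below 0 without day 0 replicate 3). Slc25a34 for day 12 against day 1 was at -0.028 to 0.37 without single libraries (below 0 without day 12 replicate 1) and -0.062 in the larger series. The cause was not tested.

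Replicate numbers are shared by the groups and were not taken to pair the libraries, since of 15 pairs 0 deviated together by a correlation over 0.1 (-0.0255 to 0.0436). As a hint from the data, 8 of 15 had their own number as best match, where 3 would do so if the numbers carried no information. With the replicate block, day 1 had 3 members higher and 5 lower, as in the fit without it, and day 12 had 4 higher and 6 lower in place of 4 and 5.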
